A study of Mus musculus with 12 samples.

Results

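The 82 chromatin remodelling and histone modifying genes described here were taken from the array by name. Their symbols begin with Chd, Hdac, Smarc, Arid1, Kdm, Kmt2, Kmt5, Mbd, Gatad2, Ezh or Brd with the family number, or read Mta1, Mta2 or Mta3. Of 85 matching probe sets among 25428, 2 pseudogenes and the Y-linked Kdm5d were set aside. By complex, 12 members belong to NuRD and 13 to BAF. Outside these, 9 are other histone deacetylases, 17 histone demethylases, 10 histone methyltransferases, 6 other CHD helicases and 5 ISWI or other SNF2 proteins. The last 10 are 4 bromodomain readers, 4 further genes with Mbd symbols and 2 genes that only share a name, Brd3os and Brd8dc.

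Chromatin remodellers use ATP to slide, evict or exchange nucleosomes. BAF, the mammalian SWI/SNF complex, mostly opens chromatin, and NuRD joins a CHD helicase to histone deacetylases and is mostly repressive. In developing neurons both complexes exchange subunits: progenitor subunits of BAF are replaced by neuronal ones, and the CHD ATPases of NuRD succeed each other as neurons mature. Histone methyltransferases and demethylases write and erase the marks that keep neuronal genes silent or active, and many of these genes are mutated in intellectual disability and autism.

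The striatum of 12 mouse embryos on the C57BL/6J background was profiled at embryonic day 18.5, each on its own array. The 6 wild-type (WT) embryos were compared with 6 embryos labelled Nestin-Cre (Foxp1-/-), called cKO, in which Foxp1, a forkhead transcription factor of striatal projection neurons, is lost. Nestin drives Cre in neural progenitors and their descendants. The labels do not say whether the WT embryos carried Cre or a conditional allele, so effects of Cre itself and of Foxp1 loss cannot be told apart. Litter and sex are not given either.

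All values are RMA log2 expression, in which a difference of 1 is a 2-fold change, and changes are cKO minus WT. Every array had a median of 5.71, near the lower end of the scale, and 76 of the 82 members lay above it. Foxp1 fell by 0.91 ± 0.07 (limma's standard error, SE), from 11.14 ± 0.17 (SD, n = 6) to 10.23 ± 0.08 (SD, n = 6), with an adjusted p of 0.000170 in limma. Of the other 9 named markers of striatal projection neurons, 4 had a positive and 5 a negative change. Pde10a fell, by 0.59 ± 0.09 (limma adjusted p = 0.00870), and was the only call among these 9. Penk, the enkephalin precursor, had a value of 0.38 ± 0.08 (adjusted p = 0.0501) and Tac1, the substance P precursor, one of -0.55 ± 0.12 (adjusted p = 0.0653). The mean of these 9 markers was 8.69 to 8.99 on the WT arrays and 8.60 to 8.78 on the cKO arrays. Markers of dividing cells averaged 7.28 to 7.54 on the WT arrays and 7.38 to 7.62 on the cKO arrays, and all 11 had a positive change; Aurkb, a mitotic kinase, rose by 0.22 ± 0.04 (limma adjusted p = 0.0303). Those of radial glia and neuroblasts averaged 9.61 to 9.91 in WT and at least 9.82 in cKO, with a positive change in all 10. Astrocyte markers averaged 7.56 to 7.74 in WT and 7.62 to 7.74 in cKO, with 4 positive and 2 negative changes. The largest of these was that of Sox9, -0.36 ± 0.10 (limma adjusted p = 0.141). Cortical glutamatergic markers averaged 6.01 to 6.36 and 5.97 to 6.72, with a positive change in all 7. Microglial and erythroid markers averaged 5.48 to 5.90 on all arrays, close to the array median. In tissue, fewer cells of a type and less RNA per cell cannot be told apart.

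Differences of the chromatin genes between the cKO and WT striatum were small, and none could be called. In limma, with Benjamini-Hochberg adjustment over all 25428 probe sets, 0 of the 82 members passed an adjusted p of 0.05, against 0.728% of all probe sets. An unadjusted p under 0.05 was reached by 7 members, or 8.54%, against 10.7% of all probe sets and 15.7% of those above the median level. Of these members, 4 were higher in cKO (Smarca2, Kdm3a, Hdac9 and Chd6; 5.06% of all probe sets were higher at this level) and 3 lower (Hdac5, Mta3 and Mbd6; 5.67% of all were lower). The median change was 0.0046 over the members and -0.00077 over all probe sets. Changes ran from -0.193 for Mta3 to 0.380 for Smarca2, and 44 were positive and 38 negative.

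The intervals bound these differences. For all 82 members the 95% interval of the change lay inside 1.5-fold in either direction, as it did for 99.5% of all probe sets. For 71 members, or 86.6%, it lay inside 1.2-fold, or 0.26 log2 units, against 93.1% of all probe sets and 86.2% of those above the median level, so these shares are near the background. The 11 exceptions to the narrower band were Smarca2, Smarca5, Mta3, Chd1, Chd4, Hdac1, Kdm3a, Kdm5a, Kdm6a, Brd1 and Brd3. RMA compresses differences of dim probe sets. The intervals of members near the array median, such as Mbd4 and Mbd6, therefore bound the array signal more tightly than they bound the transcript.

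**Figure D1:**
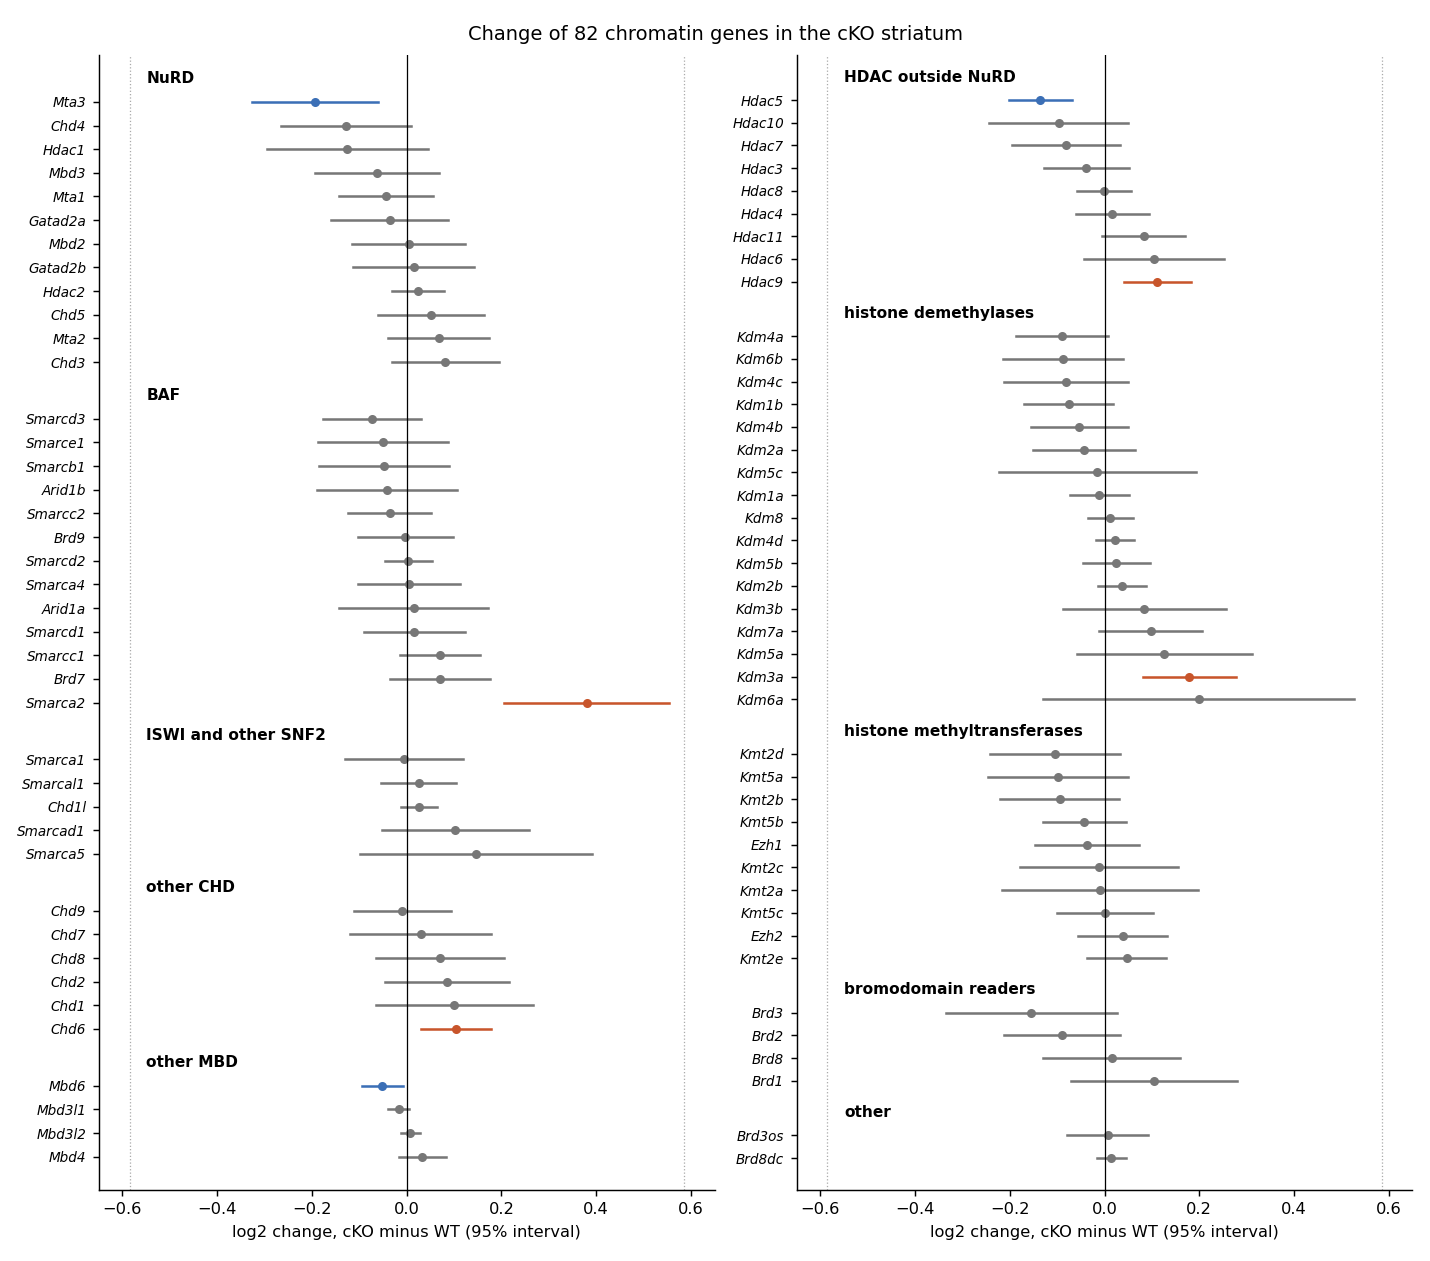
Change of each of the 82 members, cKO minus WT in log2 units, with its 95% limma interval, grouped by complex or family; orange and blue mark members higher or lower at an unadjusted p under 0.05, the others are grey, and dotted lines stand at 1.5-fold. Every interval ends inside the dotted lines, and Smarca2 lies farthest from 0, at 0.38.

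Smarca2 (gene identifier 67155), which encodes BRM, an ATPase subunit of BAF, stood closest to the threshold. The WT arrays 1 to 6 read 9.98, 9.98, 9.50, 9.97, 9.94 and 9.87. The cKO arrays 1 to 6 read 10.24, 10.21, 10.19, 10.31, 10.17 and 10.41. All 6 cKO arrays thus lay above the highest WT array, and Smarca2 was the only member whose groups did not overlap. Over all probe sets 1.38% did not overlap, and of the 12714 above the median level 286 did not. Thus 1 such member among 82 is near the background. The means were 9.87 ± 0.19 (SD, n = 6) and 10.25 ± 0.09 (SD, n = 6), a difference of 0.38 ± 0.08 (SE) or 1.30-fold, with a 95% interval of 0.21 to 0.55. Its unadjusted p was 0.000511 and its limma adjusted p 0.0582, just over the threshold.

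WT replicate 3 was the low array of the WT group. Without it the difference was smaller, 0.30, but the adjusted p was 0.0102, since the other 5 WT arrays lie between 9.87 and 9.98. Smarca2 passed in 6 of 24 alternative analyses, with adjusted p values from 0.0102 to 0.194. With the mean of the cortical markers as a covariate its change was 0.32 and its adjusted p 0.194. The part that the progenitor and dividing-cell markers given above play in the difference was not tested.

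**Figure D2:**
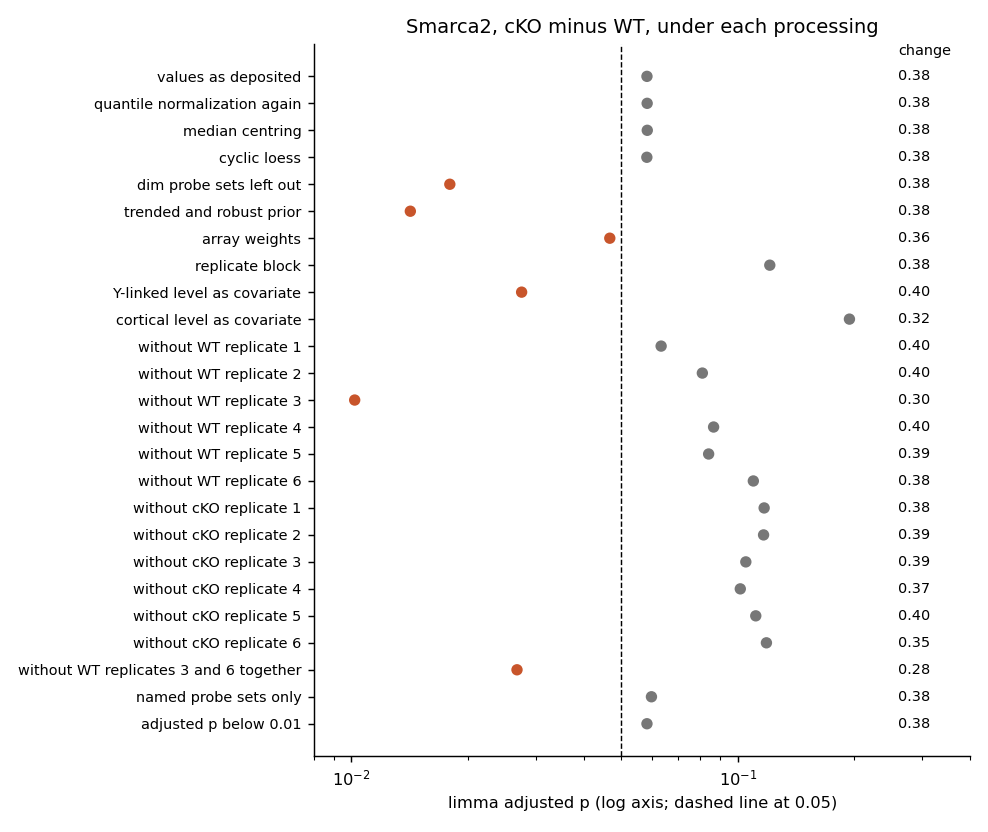
Adjusted p of Smarca2 (log axis) in the analysis of the deposited values and under 24 alternatives, with the log2 change, cKO minus WT, printed at the right; orange points passed the threshold of that analysis, and the dashed line is at 0.05. The change was positive in every one, and 6 alternatives passed.

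Smarca4, which encodes BRG1, the ATPase that takes the same place in BAF, read 10.38 to 10.76 in WT (median 10.61) and 10.53 to 10.62 in cKO (median 10.61). Its change was 0.005 ± 0.049 (SE), with an interval of -0.10 to 0.11. The cKO range lay inside the WT range. Within an array, the Smarca2 signal minus the Smarca4 signal shifted by 0.375 between genotypes, from a range of -0.889 to -0.594 in WT to one of -0.443 to -0.125 in cKO. These ranges do not touch, which describes unequal change of the pair; it was not tested, as Smarca2 had been singled out by its values.

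The remaining BAF members differed by less. Changes of the 11 members other than Smarca2 and Smarca4 ran from -0.07 for Smarcd3 to 0.07 for Smarcc1 and Brd7. Smarcc1, the BAF155 scaffold, changed by 0.070 ± 0.039 (limma adjusted p = 0.560) and its paralogue Smarcc2, the BAF170 scaffold, by -0.036 ± 0.040. Arid1a and Arid1b, the large DNA-binding subunits of canonical BAF, changed by 0.015 ± 0.072 and -0.041 ± 0.067. Smarcb1 and Smarce1, core subunits, changed by -0.048 ± 0.063 and -0.049 ± 0.063. Brd9, which marks the non-canonical form of the complex, changed by -0.003 ± 0.046.

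The subunits that BAF exchanges during neuronal differentiation are outside the name rule and were read beside it. Of 18 partner genes, 0 passed in limma, while 3 had an unadjusted p under 0.05, of which 1 was higher and 2 lower in cKO. This share was 16.7%, against 10.7% of all probe sets and 15.7% of those above the median level. Actl6b, the neuronal actin-like subunit, read 10.59 to 10.75 in WT and 10.57 to 10.65 in cKO, a change of -0.071 ± 0.026 (limma adjusted p = 0.344). Dpf1, a neuronal PHD-finger subunit, changed by -0.139 ± 0.057 (adjusted p = 0.396). Phf10, its progenitor counterpart, changed by 0.077 ± 0.033 (adjusted p = 0.422). For each of these 3 genes the groups overlapped. The progenitor subunits Actl6a and Ss18 changed by 0.036 ± 0.093 and 0.037 ± 0.061, and the neuronal Ss18l1 by -0.043 ± 0.030. The striatal factor Bcl11b, also reported as a BAF subunit, changed by -0.124 ± 0.061 (adjusted p = 0.503).

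**Figure D3:**
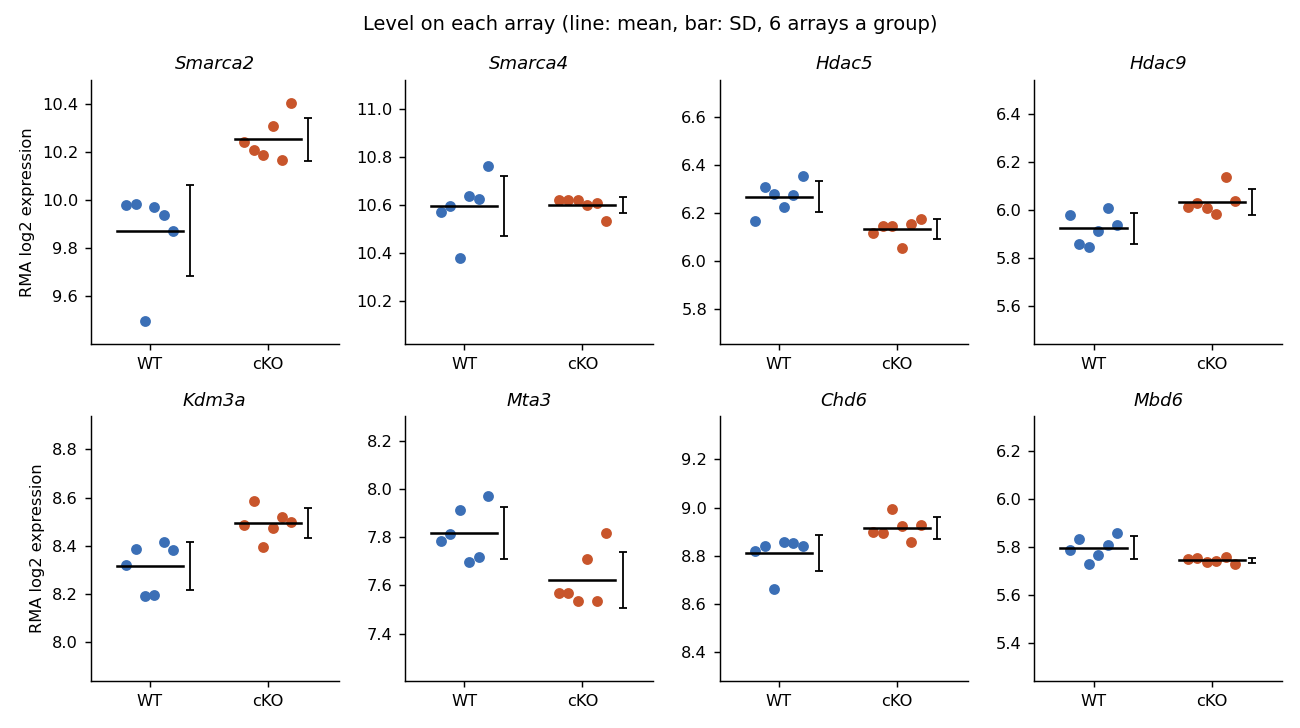
RMA log2 expression on each array for the 7 members with an unadjusted p under 0.05 and for Smarca4; points are arrays in replicate order, lines are means and bars SDs of 6 arrays, and every panel spans 1.1 log2 units. Only Smarca2 has groups that do not overlap, with WT up to 9.98 and cKO from 10.17, and Smarca4 has medians of 10.61 in both groups.

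Among NuRD members 0 of 12 passed, and 1 had an unadjusted p under 0.05. Mta3, 1 of 3 MTA scaffold proteins that hold the deacetylases, read 7.70 to 7.97 in WT (median 7.80) and 7.53 to 7.82 in cKO (median 7.57). The cKO arrays 4 and 6, at 7.71 and 7.82, lay within the WT range and the other 4 below it. Its change was -0.19 ± 0.06 (SE), or 1.14-fold lower, with an adjusted p of 0.236. Mta1 and Mta2 changed by -0.044 ± 0.045 and 0.068 ± 0.049.

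Chd4, the main ATPase of NuRD in progenitors, read 8.97 to 9.40 in WT and 8.93 to 9.17 in cKO, a change of -0.128 ± 0.063 (adjusted p = 0.503). Chd3 and Chd5, the ATPases associated with migrating and maturing neurons, changed by 0.081 ± 0.052 and 0.051 ± 0.051. The 3 genes overlapped between the groups. Hdac2, the deacetylase that pairs with Hdac1 in NuRD, changed by 0.024 ± 0.025, with all 12 arrays between 10.36 and 10.50. Hdac1 changed by -0.126 ± 0.078. A pseudogene of Hdac1 is also on the array, and the handling of shared probes was not stated. The MBD family members Mbd2 and Mbd3 changed by 0.004 ± 0.055 and -0.062 ± 0.060. The zinc-finger members Gatad2a and Gatad2b changed by -0.035 ± 0.057 and 0.015 ± 0.059. Of 10 measured partner genes 0 passed; the histone chaperones Rbbp4 and Rbbp7 changed by -0.047 ± 0.047 and -0.049 ± 0.032, and Sall1, a zinc-finger repressor that binds NuRD, by 0.176 ± 0.049 (adjusted p = 0.168).

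The class IIa deacetylases carry signals between the cytoplasm and the nucleus and repress MEF2 factors. In these arrays Hdac5 and Hdac9 had changes of opposite sign, and neither was called. Hdac5 (gene identifier 15184) read 6.17, 6.31, 6.28, 6.22, 6.27 and 6.35 on WT arrays 1 to 6, and 6.12, 6.15, 6.15, 6.06, 6.16 and 6.17 on the cKO arrays. WT replicate 1, the lowest of its group, lay just under the highest cKO array; every other WT array was above all cKO arrays. The change was -0.135 ± 0.030 (SE), or 1.10-fold lower (limma adjusted p = 0.0743). Without WT replicate 1 it was -0.156, with an adjusted p of 0.0200, and in the 23 other alternatives it did not pass.

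Hdac9 read 5.84 to 6.01 in WT (median 5.93) and 5.98 to 6.14 in cKO (median 6.02), with cKO replicate 5 the highest. Its change was 0.111 ± 0.033 (adjusted p = 0.194), at a signal close to the array median. The other class IIa genes, Hdac4 and Hdac7, changed by 0.016 ± 0.035 and -0.081 ± 0.053. Among MEF2 genes, which were looked up after these values were seen, Mef2c fell by 0.44 ± 0.08 (adjusted p = 0.0429). Mef2d changed by -0.19 ± 0.05 (adjusted p = 0.136) and Mef2a by -0.07 ± 0.03 (adjusted p = 0.370). Mef2c, close to the threshold, was not run through the alternatives, and a link between these genes and the deacetylases was not tested. The remaining deacetylases had no unadjusted p under 0.05. Hdac3, the catalytic subunit of the NCoR complex, changed by -0.038 ± 0.041, Hdac8 by -0.001 ± 0.026, the tubulin deacetylase Hdac6 by 0.104 ± 0.068, Hdac10 by -0.097 ± 0.067 and Hdac11 by 0.083 ± 0.040. Of 9 measured corepressor partners 0 passed. Tbl1x, a subunit of the NCoR complex, changed by -0.171 ± 0.045 (adjusted p = 0.136) and Rcor1, the CoREST scaffold, by 0.193 ± 0.068 (adjusted p = 0.303).

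The promoters of the members nearest to a call in each direction are shown for Smarca2 and Hdac5, as the 250 bases before the RefSeq start of each gene (GRCm38.p6). Of the 82 members, 62 had promoter windows in that table, 86 windows of 300 bases in all. They show how the CpG content of promoters differs within the set, and CG dinucleotides are in capitals.
Smarca2, chr19:26604910-26605159, plus strand: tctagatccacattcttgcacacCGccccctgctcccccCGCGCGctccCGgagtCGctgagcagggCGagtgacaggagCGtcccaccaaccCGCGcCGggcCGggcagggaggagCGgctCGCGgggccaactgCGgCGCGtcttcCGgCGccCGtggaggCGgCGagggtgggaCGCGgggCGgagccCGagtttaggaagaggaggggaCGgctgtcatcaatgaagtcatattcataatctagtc
Hdac5, chr11:102230173-102230422, minus strand: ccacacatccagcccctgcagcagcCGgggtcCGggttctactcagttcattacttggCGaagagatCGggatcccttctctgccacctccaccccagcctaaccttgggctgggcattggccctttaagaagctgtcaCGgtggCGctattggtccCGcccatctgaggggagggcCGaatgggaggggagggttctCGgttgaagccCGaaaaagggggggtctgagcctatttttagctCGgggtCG
The Smarca2 stretch of 250 bases holds 28 CG dinucleotides and the Hdac5 stretch 12. Their full windows of 300 bases hold 29 and 18. Windows of 300 bases held a median of 25.5 CG dinucleotides for the members, 13 for protein-coding genes and 7 for all windows of the table, so these genes mostly have CpG-rich promoters. The forkhead motif TGTTTAC was present on either strand in 3 member windows, those of Brd2, Hdac7 and Kdm2b, or 3.49%, against 3.65% of all windows and 3.01% of those of protein-coding genes. It was not in the windows of Smarca2 and Hdac5. A match describes the letters in a window and not a bound site.

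Histone demethylases remove methyl groups from lysines of histone tails, and 0 of 17 passed. Kdm3a, an H3K9 demethylase, had the smallest p of this group. It read 8.19 to 8.41 in WT (median 8.35) and 8.40 to 8.59 in cKO (median 8.49), and cKO replicate 3, at 8.40, lay under the highest WT array, at 8.41. The change was 0.179 ± 0.045 (SE), or 1.13-fold higher (limma adjusted p = 0.116), and it did not pass in any of 24 alternatives. Its paralogue Kdm3b changed by 0.083 ± 0.079. Kdm1a, the LSD1 demethylase of the CoREST complex, changed by -0.011 ± 0.029 and Kdm5b, an H3K4 demethylase, by 0.025 ± 0.032. Kdm4a and Kdm7a changed by -0.089 ± 0.044 (adjusted p = 0.512) and 0.097 ± 0.050 (adjusted p = 0.527).

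Kdm6a, the X-linked H3K27 demethylase UTX, was the member that varied most between arrays, with a residual SD of 0.280 that exceeded 99.5% of all probe sets. On WT arrays 1 to 6 it read 8.81, 8.88, 9.26, 9.27, 8.78 and 8.78, and on cKO arrays 8.83, 9.43, 9.36, 9.02, 9.52 and 8.81. The 5 highest arrays, WT replicates 3 and 4 and cKO replicates 2, 3 and 5, are the arrays on which Xist, the RNA that coats the inactive X chromosome, read 11.54 to 11.62. On the other 7 arrays Xist read 5.47 to 5.69, and the Y-linked Eif2s3y read 8.19 to 8.63 there, against 5.26 to 5.42 on the 5. Kdm6a is known to escape X inactivation. Between genotypes it changed by 0.199 ± 0.150 (limma adjusted p = 0.690).

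With the mean of the Y-linked genes as a covariate, the residual SD of Kdm6a was 0.0738, and its change was 0.126 ± 0.040 with a 95% interval of 0.04 to 0.22. The unadjusted p was then 0.0101 and the adjusted p 0.272. Kdm5c, the other X-linked demethylase known to escape inactivation, read 8.44 to 8.81 in WT and 8.32 to 8.80 in cKO. Its 4 highest arrays, from 8.68 to 8.81, were among the same 5, while WT replicate 3 read 8.48. Its change was -0.015 ± 0.095, and -0.052 ± 0.063 with the covariate.

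**Figure D4:**
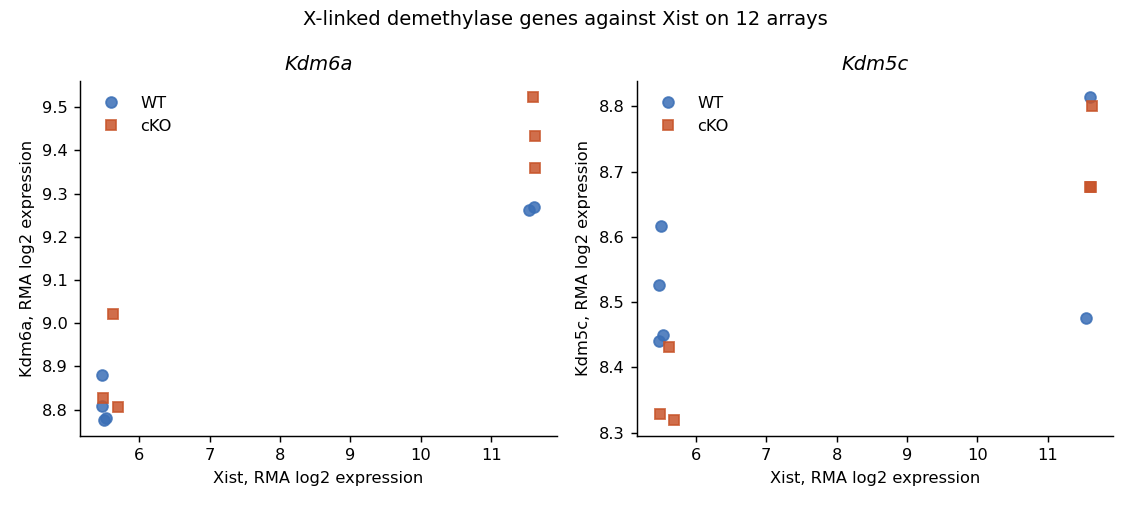
RMA log2 expression of Kdm6a and Kdm5c against that of Xist on the 12 arrays, WT as circles and cKO as squares. For Kdm6a the 5 arrays with Xist near 11.6 read 9.26 to 9.52, above the other 7 at 8.78 to 9.02. WT replicate 3 is among the 5 with high Xist, but its Kdm5c level, 8.48, lies within the range of the 7 with low Xist.

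Of the 10 histone methyltransferases 0 passed, and 0 had an unadjusted p under 0.05 in limma. Ezh2 and Ezh1, the alternative catalytic subunits of Polycomb repressive complex 2, changed by 0.038 ± 0.043 and -0.037 ± 0.050. Kmt2d and Kmt2b, H3K4 methyltransferases, had the smallest p values of the group, with changes of -0.105 ± 0.062 (adjusted p = 0.596) and -0.095 ± 0.057 (adjusted p = 0.603). Kmt5a, the H4K20 monomethyltransferase, changed by -0.098 ± 0.068. Of 23 measured Polycomb partners 0 passed. The PRC2 cofactor Jarid2 read 9.15 to 9.41 in WT and 9.41 to 9.58 in cKO, without overlap but nearly touching, with a change of 0.136 ± 0.049 (adjusted p = 0.312). Scmh1, a PRC1 component, changed by -0.214 ± 0.059 (adjusted p = 0.164), and passed without WT replicate 1 (adjusted p = 0.0434). The core subunits Suz12 and Eed changed by 0.063 ± 0.042 and 0.066 ± 0.044.

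Further writers and erasers outside the name rule also gave 0 calls in limma among 8 COMPASS partners, 17 other methyltransferases, 11 acetyltransferases, 10 DNA methylation genes and 15 INO80-type and other remodellers. Of the 61 genes of these lists 5 were higher and 2 lower with an unadjusted p under 0.05. This is 11.5%, against 10.7% of all probe sets and 15.7% of those above the median level. The de novo DNA methyltransferase gene Dnmt3a changed by -0.193 ± 0.057 (adjusted p = 0.197), with WT arrays at 8.54 to 8.74 and cKO arrays at 8.22 to 8.55. Setd1a, an H3K4 methyltransferase, changed by -0.068 ± 0.028 (adjusted p = 0.401), and Baz2b, a bromodomain protein, by 0.157 ± 0.070 (adjusted p = 0.442). Prdm8, of the PRDM methyltransferase family, varied most in cKO, from 7.49 to 9.02 against 7.24 to 7.92 in WT, and its change of 0.65 ± 0.26 had an adjusted p of 0.381. The cKO arrays 2, 4, 5 and 6, at 8.21 to 9.02, were those on which the cortical markers averaged 6.51 to 6.72. With that average as a covariate the change of Prdm8 was 0.26 ± 0.15 (adjusted p = 0.614).

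Among the other remodellers, Chd6 read 8.66 to 8.86 in WT (median 8.84) and from 8.86 upwards in cKO (median 8.91). WT replicate 3 was the lowest, and to 2 decimals the highest WT and lowest cKO arrays both read 8.86. The change was 0.104 ± 0.034 (limma adjusted p = 0.262). Chd8, a helicase known from autism genetics, changed by 0.070 ± 0.062, and Chd7 by 0.029 ± 0.068. Chd1 and Chd2, which act at transcribed genes, changed by 0.101 ± 0.076 and 0.086 ± 0.060. Smarca5 and Smarca1, the ISWI ATPases, changed by 0.146 ± 0.112 and -0.006 ± 0.057, and the SNF2 protein gene Smarcad1 by 0.103 ± 0.071. With the cortical covariate the change of Smarca5 was 0.006 ± 0.088. Among the bromodomain readers of acetylated histones, Brd3 changed by -0.154 ± 0.083 (adjusted p = 0.546), Brd2 by -0.090 ± 0.056 and Brd1 by 0.105 ± 0.080. With the cortical covariate the change of Brd1 was 0.214 ± 0.056 (adjusted p = 0.195). Mbd6 read 5.73 to 5.86 in WT and 5.73 to 5.76 in cKO, a change of -0.051 ± 0.020 (adjusted p = 0.360) at the array median. Mbd4, a thymine glycosylase, changed by 0.033 ± 0.023. Brd3os, which lies opposite Brd3, changed by 0.006 ± 0.039.

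WT replicates 3 and 6 were the arrays that lay farthest from their group for the most chromatin genes. Measured from its group mean, WT replicate 3 was the farthest of the 12 arrays for 27 of the 82 members, or 32.9%, against 19.6% of probe sets above the median level. WT replicate 6 was the farthest for 15, or 18.3%, against 19.2%. On WT replicate 3, 24 of its 27 members were low, and 58 of the 82 lay below the WT mean, whereas 51.7% of the probe sets above the median level did. The SD was larger in WT than in cKO for 61 of the 82 members, or 74.4%, against 67.6% of the probe sets above the median level.

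Several genes of the MLL family and the ARID1 subunits show this, and were singled out after their values were seen. Kmt2a read 8.93 on WT replicate 3 and 9.67 on WT replicate 6, against 9.38 to 9.48 on the other WT arrays and 9.29 to 9.46 in cKO. Arid1a read 9.88 and 10.44 on these arrays, against 10.08 to 10.22 on the other WT arrays and 10.11 to 10.22 in cKO. Kmt2c, Kmt2d, Arid1b and the bromodomain gene Brd3 followed the same order, lowest on WT replicate 3 and highest on WT replicate 6 among all 12 arrays. So did Kmt2e and members of other families, among them Smarca4, Kdm6b, Kdm2a and Kmt5b. Outside the name rule Crebbp, Srcap and Tet3 did as well. The order is thus not particular to the MLL and ARID1 genes. Kmt2b, also of the MLL family, was highest on WT replicate 6, at 7.58, but read 7.27 on WT replicate 3, above 3 cKO arrays. Hdac2, chosen as a contrast, read 10.36 and 10.42 on these arrays and 10.36 to 10.50 over all 12. It was also lowest on WT replicate 3, by a small margin. Its residual SD was 0.045, against a median of 0.092 over the members, so it contrasts in spread only.

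**Figure D5:**
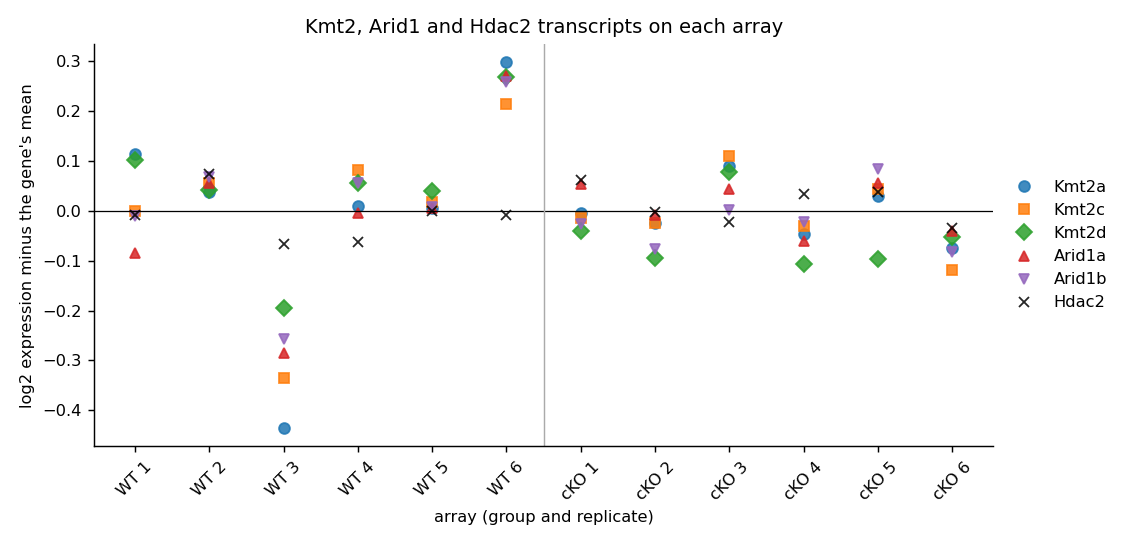
Log2 expression of Kmt2a, Kmt2c, Kmt2d, Arid1a, Arid1b and Hdac2 on each of the 12 arrays, minus each gene's mean over the arrays. The 5 Kmt2 and Arid1 genes drawn are low together on WT replicate 3 and high together on WT replicate 6, while Hdac2, between 10.36 and 10.50 on all arrays, and the 6 cKO arrays spread less.

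Leaving out these arrays changed how many members came under an unadjusted p of 0.05. Both arrays had been singled out by the values of these same members. Leaving out WT replicate 3 raises the WT mean of the 58 members that lay below it there. The counts without these arrays are thus a description and not a test. Without WT replicate 3 there were 16 members in place of 7, or 19.5% of the members against 11.3% of all probe sets. Of these 6 were higher, against 5.21% of all probe sets, and 10 lower, against 6.13%. The lower ones now included Chd4, Brd2, Brd3, Kdm4a, Kdm6b, Kmt2d and Kmt5a. Without WT replicates 3 and 6 there were 14, or 17.1% against 8.95%, with 4 higher (4.07% of all probe sets) and 10 lower (4.88%). Smarca2 alone passed the adjusted threshold in these analyses. With the replicate number as a block there were 12 members, against 10.1% of all probe sets. Of these 8 were higher, against 4.87%, and 4 lower, against 5.2%, and 0 passed the adjusted threshold. The shares in these comparisons are over all probe sets, but 76 of the 82 members lay above the median level. With all 12 arrays the share above that level was 15.7%, against 10.7% of all probe sets. It was not computed for these alternatives, so a background of like level is missing here.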

How the data were processed

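Per the submitters' notes on processing, the authors deposited RMA values (no version named) on a log2 scale. RMA sets all columns to 1 distribution, so a change common to all genes would not be visible, and compresses dim signals. Array model and probe definition were not stated. Symbols came from the platform's gene table and RefSeq identifiers (GRCm38.p6), which named 24674 probe sets and left 754 unnamed. Arrays correlated at 0.992 to 0.998. Only 9.25% of the values of cKO replicate 1 lay on the binary grid of the other columns, so it was written out differently. The labels call the samples biological replicates.

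The test was limma 3.58.1 (lmFit, eBayes; R 4.3.3), two-sided and without covariates, over all probe sets and 12 arrays, with Benjamini-Hochberg adjustment at 0.05. It was also run on simulated data, and the outcome is not reported here. The number of arrays limits the precision. Alternatives covered normalization, dim probe sets, prior, array weights, the replicate block, covariates, thresholds and left-out arrays. The Y-linked covariate used 2 of 3 planned genes, and the cortical covariate 7 genes.

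The members and lists were chosen with earlier results of these data known. Named genes are Foxp1, members past the threshold or without overlap, the 3 smallest p values of each member family, and from each other list the calls or the 2 smallest p values; not all of these are printed. The rule also named the highest and lowest levels of each family, which were not used because levels of different probe sets cannot be compared. Further members and partners were named for their role, some after their values were seen.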

Additional observations from a re-analysis of the deposited data

Results flagged for a closer look

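Of 64 groups of 6 arrays, for the named members and Foxp1, 6 held an array far from the other 5, by Dixon's gap test at the 95% level. Chance flags about 1 group in 20. WT replicate 3 was the far array for Smarca2, at 9.50 with the next at 9.87, and for Chd6, at 8.66 with the next at 8.82. WT replicate 6 was far for Kmt2b, at 7.58 with the next at 7.34. In cKO, replicate 2 was low for Smarcd3, at 7.48 with the next at 7.62. Replicate 5 was high for Hdac9, at 6.14 with the next at 6.04, and replicate 3 was high for Kmt2d, at 7.84 with the next at 7.72.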

How the results depend on the processing

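Over 25 alternatives, members called higher numbered 0, or 1 (Smarca2) when dim probe sets were left out, with a trended, robust prior, with array weights, with the Y-linked covariate, and without WT replicate 3, alone or with WT replicate 6. Members called lower numbered 0, or 1 (Hdac5) without WT replicate 1. Leaving out 1 array at a time gave 0 to 1 in each direction. The 185 probe sets called in all became 278 without dim probe sets, 64 with the replicate block, 103 with the cortical covariate, 61 at an adjusted p of 0.01 and 30 with a 1.5-fold minimum, and ran from 106 to 227 when each array was left out. With the replicate block Smarca2 had an adjusted p of 0.121. Replicate numbers did not pair the arrays: 1 of 6 same-number correlations was above 0.1, and 0 WT arrays correlated best with their own number. Among 68 named genes, Kdm5c and Brd3os, with changes of -0.015 and 0.006, took the other sign in 5 analyses each. Uty took it only with the Y-linked covariate (0.035, against -0.26). None of these values was called. The Y-linked covariate is the mean of Uty and Eif2s3y, so with it their changes must be equal and opposite. The compression of dim signals limits what can be seen for members near the array median.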
